A study of Mus musculus with 8 samples.

Results

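The DNA replication machinery was followed here through 47 genes, all of which were found by symbol among the 16308 genes of the count table for Th17 and naive cells of the mouse. Th17 cells are helper T cells that make interleukin-17. The members were taken from a list of named genes and sorted by role into 15 genes of origin licensing, 8 of origin firing, 21 of the replication fork and 3 of S phase entry. The Th17 cells were wild-type C57BL/6 CD4+ T cells kept for 72 h with 0.25 µg/mL anti-CD3ε, 1 µg/mL anti-CD28, 0.1 ng/mL TGF-β and 20 ng/mL IL-6, and the naive cells were untreated wild-type CD4+ T cells of the same strain, with 2 libraries of ribosome-depleted RNA in each group. The general protocol text of the labels also names a wider TGF-β range and an earlier time. A further pair of groups, DDX5-deficient (DDX5∆T) and wild-type (WT) Th17 cells of C57BL/6 mice under the same 72 h culture, again with 2 libraries each, was represented only by edited RNA sites. The labels give no ages, no Cre driver and no count of animals per library. The series' design text calls the replicates biological, and Th17 library 2 and naive library 2 carry a common number in their library names whose meaning is not stated.

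A resting T cell is out of the cell cycle and, once its receptor and CD28 are engaged, it grows, enters S phase and divides repeatedly. Before S phase the origin recognition complex (ORC) with CDC6 and CDT1 loads the ring-shaped MCM helicase, made of MCM2 to MCM7, onto origins, a step called licensing that geminin blocks afterwards by binding CDT1. Firing then needs the kinase CDC7 with its activator DBF4, and CDC45 and the GINS complex, which join MCM to form the active helicase. Primase and the DNA polymerases, the sliding clamp PCNA with its loader RFC, the single-strand binding protein RPA and the enzymes that join Okazaki fragments copy the DNA at the fork.

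The count libraries held 26624436 and 11768994 reads on genes in Th17 and 20426728 and 16154625 in naive cells. The labels were met by their markers: Il17a, which encodes the defining cytokine, lay at 1242 and 924 CPM (reads scaled to a common library size, here with the trimmed mean of M values, TMM) in the Th17 libraries and had 0 reads in both naive libraries, and the 5 Th17 markers summed to 3894 and 3464 CPM in Th17 and 0.743 and 0.493 CPM in naive libraries. The 5 naive markers summed to 850 and 805 CPM in Th17 and 3922 and 3940 CPM in naive libraries. The 4 measured CD4 T cell markers, Cd3d, Cd3e, Cd3g and Cd4, were all present and summed to 1112 and 984 CPM in Th17 and 2989 and 3515 CPM in naive libraries. The 6 B cell markers summed to 52.5 and 45.9 CPM in Th17 and 2.12 and 3.10 CPM in naive libraries, with Ebf1 alone at 51.9 and 44.6 CPM in Th17. The summed level was 3.82 and 3.86 CPM in Th17 and 7.11 and 5.21 CPM in naive libraries for 6 myeloid markers, 21.2 and 20.8 CPM in Th17 and 84.4 and 95.6 CPM in naive libraries for 6 CD8 and NK markers, and 0.555 and 7.27 CPM in Th17 and 11.0 and 6.90 CPM in naive libraries for 5 erythroid markers. Myeloid markers moved both ways: Cd14 lay at 3.26 and 2.65 CPM in Th17 and 0.0531 and 0 CPM in naive libraries. Lyz2, Itgam and Fcer1g lay lower in both Th17 libraries than in either naive library. The B cell marker Ms4a1 had 0 reads in 3 of the 4 libraries. The part of such cells in the results was not tested.

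Most replication genes were higher in Th17 than in naive cells. The groups differ at once in 72 h of culture, anti-CD3ε and anti-CD28, and TGF-β and IL-6, whose parts cannot be told apart here. By edgeR's quasi-likelihood test with an adjusted p under 0.05 over all tested genes, 32 of the 47 members rose and 2 fell, and 13 did not pass. Among all 11989 genes tested, 34.3% were called higher and 30.7% lower, 65.1% in all. The median log2 fold change of Th17 over naive was 1.20 for the members and 0.06 for all tested genes, and 24 members were called higher by a log2 of at least 1, a size that 24.8% of all tested genes reached. All 47 members passed the filter on low counts, and in 39 of them the groups did not overlap, against 85% of all tested genes. That filter asks for enough reads in at least 2 libraries. Orc1, with 10 and 4 naive reads, and Ccne2, with 12 and 6, passed it only through their Th17 libraries. Their calls are therefore given as a description. In bulk RNA fewer cells expressing a gene and less of its RNA per cell cannot be told apart. Without naive library 1 the members called were 24 higher and 1 lower, and without Th17 library 1 they were 28 higher and 4 lower. Over all tested genes, 2436 were called higher without naive library 1 and 2380 without naive library 2.

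**Figure D1:**
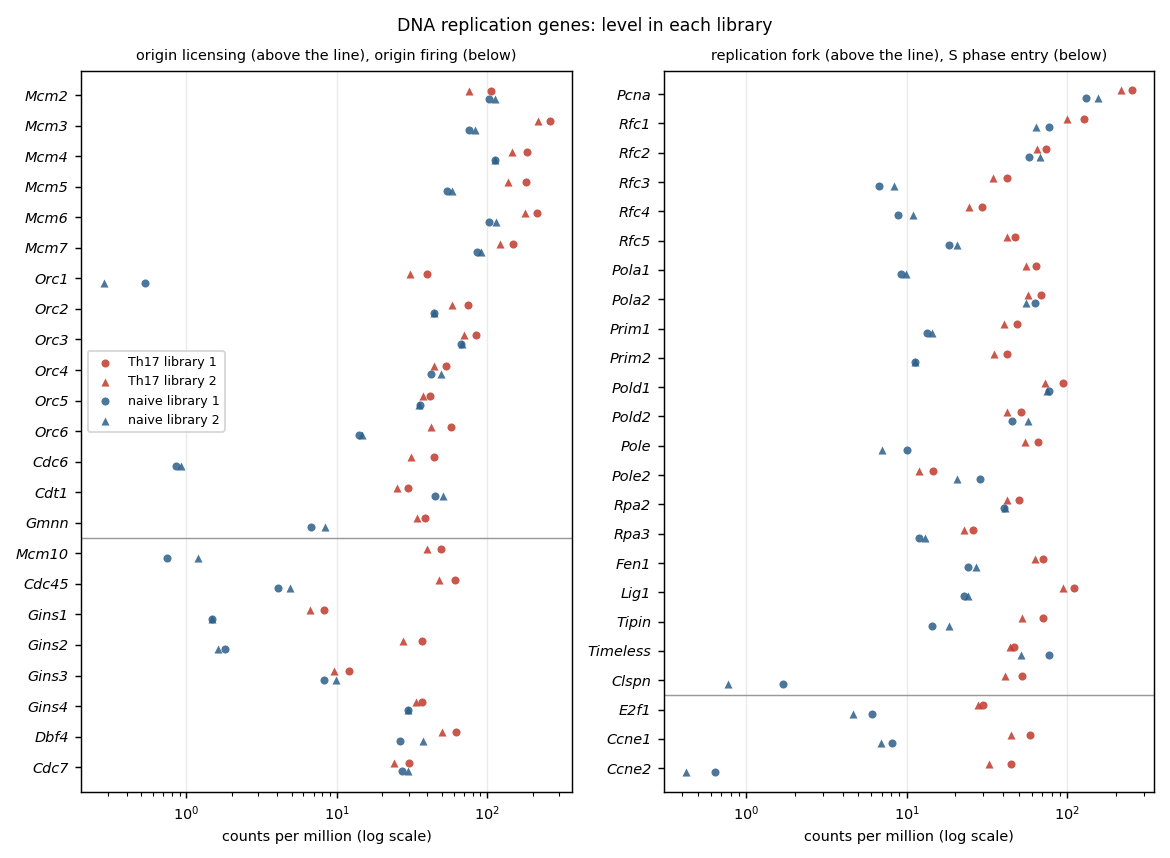
Level of each of the 47 replication genes in each library, in CPM on a log axis, with Th17 libraries in red and naive libraries in blue (circles for library 1, triangles for library 2). Of the 7 genes below 2 CPM in naive cells, Orc1, Cdc6, Mcm10, Clspn and Ccne2 lay between 30.8 and 52.3 CPM in the Th17 libraries, Gins2 at 36.7 and 27.4 CPM and Gins1 at 8.19 and 6.59 CPM, while Mcm2, Cdc7, Pold1 and Pold2 have groups that overlap.

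Among the members, how far a gene moved went with how much of it naive cells already held. The 7 members under 2 CPM in naive cells (Orc1, Cdc6, Mcm10, Gins1, Gins2, Clspn and Ccne2) all rose, by log2 fold changes of 2.31 to 6.38. Of the 9 members between 2 and 10 CPM 8 rose, and of the 31 at 10 CPM or more 17 rose, 2 fell and 12 did not pass, with log2 fold changes of -0.89 to 2.12. The naive level enters both the grouping and the fold change, so this is a description. All tested genes were not split by naive level, and at any level 34.3% of them were called higher. Genes with very few naive reads are also tested only if their Th17 reads are enough. The pattern therefore cannot be called particular to these members. The range from lowest to highest member was also narrower in Th17 cells: per kb of exon levels spanned 3.998 (Gins3) to 97.8 CPM per kb (Pcna) there, a 24.5-fold range, and 0.117 (Orc1) to 59.7 CPM per kb (Pcna) in naive cells, a 512-fold range. The low end in naive cells rests on 10 and 4 reads of Orc1, and the MCM subunits taken alone spread more widely in Th17 cells. In Th17 cells library 1 lay above library 2 for 47 of 47 members, by a median log2 of 0.28, whereas 60.2% of all tested genes lay higher in library 1. In naive cells library 1 lay above library 2 for 17 of 47 members, against 49.1% of all tested genes.

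**Figure D2:**
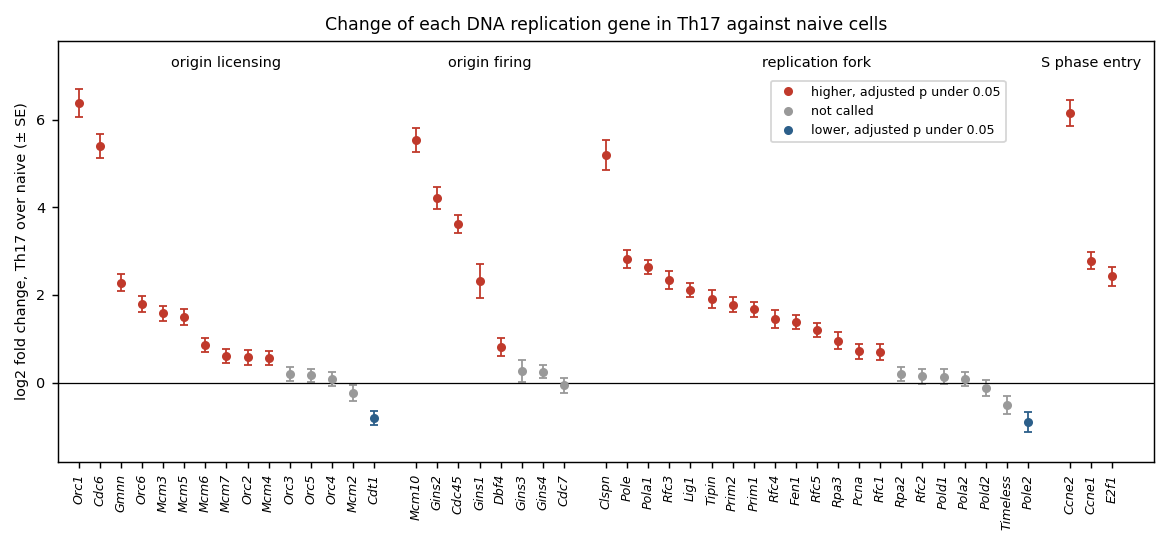
Change of each member in Th17 relative to naive cells (log2) with its standard error, sorted within 4 roles, from the edgeR fit on 2 libraries a group. Red marks members called higher, blue members called lower and grey members not called at the threshold of 0.05. Each role with over 3 members spans from a strong rise to no call or a fall, led by Orc1 at 6.38, Mcm10 at 5.54 and Clspn at 5.19.

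The roles did not separate as blocks. Licensing had 10 of 15 members higher, 1 lower and a median log2 fold change of 0.61. Firing had 5 of 8 members higher, 0 lower and a median of 1.57, and the fork had 14 of 21 higher, 1 lower and a median of 1.20. The 3 genes of S phase entry all rose, with a median of 2.78. Over all tested genes 34.3% were called higher and 30.7% lower, with a median of 0.06. In either direction 62.5% of firing genes were called, near the 65.1% of all tested genes. The differences between roles were not tested, because genes of a role are not replicates. Per kb of exon the median level of licensing genes was the highest of the roles in Th17, at 17.2 CPM per kb, and also in naive cells, at 11.5 CPM per kb. For firing genes the median was 6.45 CPM per kb in Th17 and 2.30 CPM per kb in naive cells.

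The promoters of the members were read for the DNA words bound by E2F factors, which drive genes of S phase. Whether E2F factors changed these genes here was not tested. The RefSeq table for GRCm38.p6, the build of these files (mm10), held 46 promoters of 37 members, each 250 bases before to 50 after the start. The spellings searched on both strands were TTTGGCGC, TTTCCCGC, TTTGCCGC and TTTCGCGC, and matches may overlap. Of 37 members 15, or 40.5%, held at least 1 such octamer, compared with 4.80% of the 9597 tested genes and 704 of all 27025 genes in the table. Counted by promoter, it was in 32.6% of the 46 member promoters and 2.26% of all 32851 promoters. The CCAAT box, searched as ATTGG on both strands, was found for 56.8% of these members, 43.3% of the tested genes and 41.1% of all genes in the table, or in 23 of the 46 member promoters and 37.4% of all promoters.

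Of the 15 members with an octamer 10 rose, 2 fell and 3 did not pass, and of the 22 without it 14 rose, 0 fell and 8 did not pass. The median log2 fold change was 1.496 with and 0.76 without the octamer, and the ranges overlapped widely, from -0.89 to 6.38 and from -0.50 to 5.54. Some windows lay away from the gene start in GENCODE M21, so this split is one of the windows read. The start used lay 6001 bases downstream for Timeless, 466 for E2f1 and 134 for Pcna, which had no match. The Lig1 match began at base 1570 of its annotated gene, and those of Mcm7 at bases 375 and 556. The promoters below are examples: 4 members that rose and carry a match, and the 2 members that fell and also carry a match. Mcm2, which did not pass and has no match, and Cdc45, which rose without a match, are also shown. The 3 members with a match that did not pass, Orc3, Gins3 and Pold1, are not shown. Capitals mark octamer matches on either strand, each sequence runs 5′ to 3′ on the strand of the gene, and coordinates are GRCm38.p6.
Orc1, chr4:108579204-108579503, plus strand: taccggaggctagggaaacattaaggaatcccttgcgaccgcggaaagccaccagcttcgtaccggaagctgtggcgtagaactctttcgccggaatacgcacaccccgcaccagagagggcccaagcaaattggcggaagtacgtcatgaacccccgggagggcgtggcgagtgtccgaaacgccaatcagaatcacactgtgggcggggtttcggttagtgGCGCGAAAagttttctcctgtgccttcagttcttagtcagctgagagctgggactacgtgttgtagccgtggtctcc
Cdc6, chr11:98907901-98908200, plus strand: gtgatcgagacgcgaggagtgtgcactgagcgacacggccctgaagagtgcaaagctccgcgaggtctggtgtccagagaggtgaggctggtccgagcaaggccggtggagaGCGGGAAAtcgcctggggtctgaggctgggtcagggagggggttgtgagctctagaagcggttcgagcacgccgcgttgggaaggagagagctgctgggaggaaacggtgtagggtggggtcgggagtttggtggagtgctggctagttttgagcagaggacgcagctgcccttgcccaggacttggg
Clspn, chr4:126556730-126557029, plus strand: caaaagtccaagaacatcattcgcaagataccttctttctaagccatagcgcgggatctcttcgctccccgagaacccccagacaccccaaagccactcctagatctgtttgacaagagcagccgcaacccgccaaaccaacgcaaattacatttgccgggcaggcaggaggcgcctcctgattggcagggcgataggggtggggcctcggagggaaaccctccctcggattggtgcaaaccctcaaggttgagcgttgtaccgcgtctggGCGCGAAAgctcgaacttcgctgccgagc
Mcm3, chr1:20820263-20820562, minus strand: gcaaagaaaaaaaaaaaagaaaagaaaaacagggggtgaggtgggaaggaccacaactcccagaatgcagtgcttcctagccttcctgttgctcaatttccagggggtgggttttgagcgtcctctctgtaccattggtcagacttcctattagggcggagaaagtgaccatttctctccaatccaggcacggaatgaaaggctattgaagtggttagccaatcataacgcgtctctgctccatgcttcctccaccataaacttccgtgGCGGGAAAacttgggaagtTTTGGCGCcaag
Cdt1, chr8:122567765-122568064, plus strand: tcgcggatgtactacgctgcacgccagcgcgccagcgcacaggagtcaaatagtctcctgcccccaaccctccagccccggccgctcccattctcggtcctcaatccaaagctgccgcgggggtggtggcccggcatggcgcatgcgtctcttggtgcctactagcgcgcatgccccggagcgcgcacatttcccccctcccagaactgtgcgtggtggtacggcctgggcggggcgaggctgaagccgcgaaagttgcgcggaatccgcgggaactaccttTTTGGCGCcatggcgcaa
Pole2, chr12:69228141-69228440, minus strand: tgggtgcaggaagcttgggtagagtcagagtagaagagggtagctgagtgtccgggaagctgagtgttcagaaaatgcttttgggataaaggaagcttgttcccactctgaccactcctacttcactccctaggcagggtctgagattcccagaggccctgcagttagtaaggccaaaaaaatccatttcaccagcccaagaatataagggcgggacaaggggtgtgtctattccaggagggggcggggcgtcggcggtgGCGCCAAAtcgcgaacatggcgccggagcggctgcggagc
Mcm2, chr6:88898731-88899030, minus strand: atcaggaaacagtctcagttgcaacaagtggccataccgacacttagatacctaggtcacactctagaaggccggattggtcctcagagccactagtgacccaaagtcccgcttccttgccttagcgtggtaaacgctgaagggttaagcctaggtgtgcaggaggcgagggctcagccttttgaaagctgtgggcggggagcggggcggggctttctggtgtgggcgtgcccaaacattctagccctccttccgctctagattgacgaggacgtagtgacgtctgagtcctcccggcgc
Cdc45, chr16:18811923-18812222, minus strand: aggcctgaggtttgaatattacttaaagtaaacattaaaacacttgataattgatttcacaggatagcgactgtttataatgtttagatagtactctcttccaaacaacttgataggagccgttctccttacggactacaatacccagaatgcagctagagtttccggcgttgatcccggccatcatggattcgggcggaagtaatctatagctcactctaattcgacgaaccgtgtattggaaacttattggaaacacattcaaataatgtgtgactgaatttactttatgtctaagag
Positions are counted from the start that the RefSeq table uses. In Orc1 the match begins 27 bases before that start, in Cdc6 138 bases before it, and in Clspn at base 22. The table's start of Cdc6 lies 350 bases downstream of the start of the gene in GENCODE M21, so its match begins at base 213 of the annotated gene. For the other 7 promoters shown the table's start lies 0 to 45 bases downstream of the annotated gene start, and the match of Orc1 begins at base 5 of its annotated gene. Mcm3 carries 2 matches, at bases 20 and 39, Cdt1 a match at base 33 and Pole2 a match at base 11.

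Among the genes that mark origins, Orc1, Orc6 and Orc2 of the 6 subunits of ORC rose with TMM scaling. Orc1, whose product is the regulated ATPase of the complex, lay at 39.9 and 30.8 CPM in Th17 against 0.531 and 0.282 CPM in naive cells, where 10 and 4 reads were counted. It had the largest log2 fold change of the module, 6.38 (SE 0.32, edgeR adjusted p = 6.3e-07), and the group means were 35.3 ± 6.43 CPM in Th17 and 0.406 ± 0.176 CPM in naive cells (SD, n = 2 each). Orc6, the small subunit that also contacts DNA, lay at 57.4 and 42.4 CPM in Th17 against 14.1 and 14.8 CPM in naive cells, a log2 fold change of 1.79 (SE 0.19, edgeR adjusted p = 4.9e-05). Orc2, a core subunit, rose by a log2 of 0.58, with 74.4 and 58.3 CPM in Th17 against 44.5 and 44.4 CPM in naive cells. That call was lost without either naive library (log2 of 0.54 and 0.50) and without Th17 library 1 (log2 of 0.36), and Orc2 shares 1150 exonic bases with Nif3l1 on the other strand.

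The remaining core subunits, Orc3, Orc4 and Orc5, did not pass, with log2 fold changes of 0.20, 0.08 and 0.17 (SE 0.15 to 0.16). On unscaled library totals Orc3 and Orc5 were called higher, at 0.50 and 0.46. Orc4 lay at 52.9 and 44.0 CPM in Th17 and 42.3 and 49.3 CPM in naive cells, which overlap, and shares 582 exonic bases with Acvr2a and Mbd5 on the other strand. Relative to Orc2 in the same library, reads per kb of Orc1 were 0.594 and 0.585 in Th17 and 0.0132 and 0.00703 in naive cells. A ratio within a library does not depend on how libraries are scaled. Across the 6 subunits the highest level per kb was 3.45 and 2.91 times the lowest in the Th17 libraries and 75.7 and 142 times the lowest in the naive libraries, with Orc1 lowest in both naive libraries.

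The loaders moved in opposite directions. Cdc6, which encodes the ATPase that joins ORC to recruit MCM, lay at 44.1 and 30.9 CPM in Th17 against 0.849 and 0.915 CPM in naive cells. Its log2 fold change was 5.41 (SE 0.28, edgeR adjusted p = 7.0e-07). Cdt1, which encodes the partner that brings MCM to origins, fell by 0.80 on the log2 scale (SE 0.16, edgeR adjusted p = 0.0023), with 29.9 and 24.9 CPM in Th17 against 45.2 and 50.4 CPM in naive cells. Cdt1 kept this direction and call in all 11 alternative settings.

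Gmnn, which encodes geminin, the inhibitor of CDT1, rose where Cdt1 fell. It lay at 38.4 and 34.3 CPM in Th17 against 6.69 and 8.31 CPM in naive cells, a log2 fold change of 2.28 (SE 0.19, edgeR adjusted p = 1.4e-05). Reads per kb of Gmnn over those of Cdt1 in the same library came to 2.76 and 2.95 in Th17 and 0.317 and 0.353 in naive cells, so the order of inhibitor and loader RNA was turned round between the groups. With 2 libraries against 2 an exact two-sided permutation test cannot give a p below 0.333, so such ratios are given without a test.

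**Figure D3:**
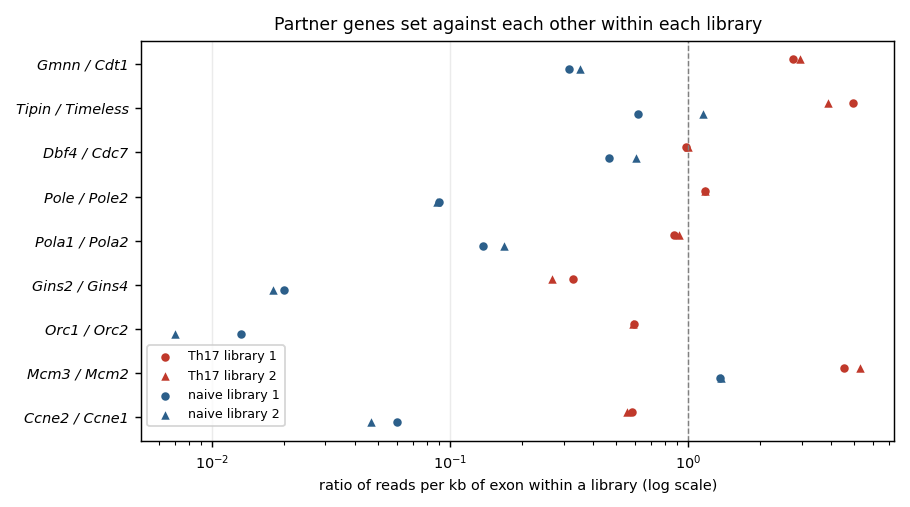
Ratio of reads per kb of exon of a gene over a partner gene within the same library, on a log axis, for 9 pairs, with Th17 libraries in red and naive libraries in blue (circles for library 1, triangles for library 2) and a dashed line at equal levels. The groups are apart in each pair shown, and Gmnn over Cdt1 lies above 1 in both Th17 libraries and below 1 in both naive libraries. Where a ratio lies relative to the dashed line depends on the lengths used, while the fold between groups does not.

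The MCM helicase genes were abundant already in naive cells and changed by unequal amounts. Mcm3 lay at 260 and 216 CPM in Th17 against 75.7 and 83.5 CPM in naive cells, a log2 fold change of 1.58 (SE 0.17, edgeR adjusted p = 4.8e-05). Mcm5 lay at 181 and 137 CPM in Th17 against 54.1 and 58.7 CPM in naive cells, a log2 fold change of 1.496 (SE 0.18, edgeR adjusted p = 1.2e-04). With TMM scaling these were the subunits, of 6, that rose by a log2 of at least 1. Mcm6, Mcm7 and Mcm4 rose by 0.86, 0.61 and 0.56 (SE 0.16 each), with no overlap between groups. Mcm6 was not called without naive library 1, at a log2 of 0.75, and Mcm4 and Mcm7 were not called without either naive library (0.48 to 0.58) or without Th17 library 1 (0.35 and 0.42).

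Mcm2, whose protein also binds histones, was the exception. It lay at 106 and 75.9 CPM in Th17 against 103 and 112 CPM in naive cells, so the groups overlapped, with a log2 fold change of -0.24 (SE 0.19, edgeR adjusted p = 0.29). Without Th17 library 1 it was called lower at a log2 of -0.53, and on unscaled library totals the value was 0.06. Mcm3 over Mcm2, in reads per kb within a library, was 4.54 and 5.28 in Th17 and 1.37 and 1.38 in naive cells, and Mcm5 over Mcm2 was 2.98 and 3.13 in Th17 and 0.919 and 0.910 in naive cells. The size of these ratios depends on the length used, as Mcm2 has 6956 exonic bases and 3371 in its longest coding transcript. The highest of the 6 levels per kb was 4.54 and 5.28 times the lowest in the Th17 libraries and 2.31 and 2.13 times the lowest in the naive libraries, a wider spread in Th17 and the reverse of ORC. Mcm7 holds the microRNA genes Mir25 and Mir93 within its annotated exons.

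**Figure D4:**
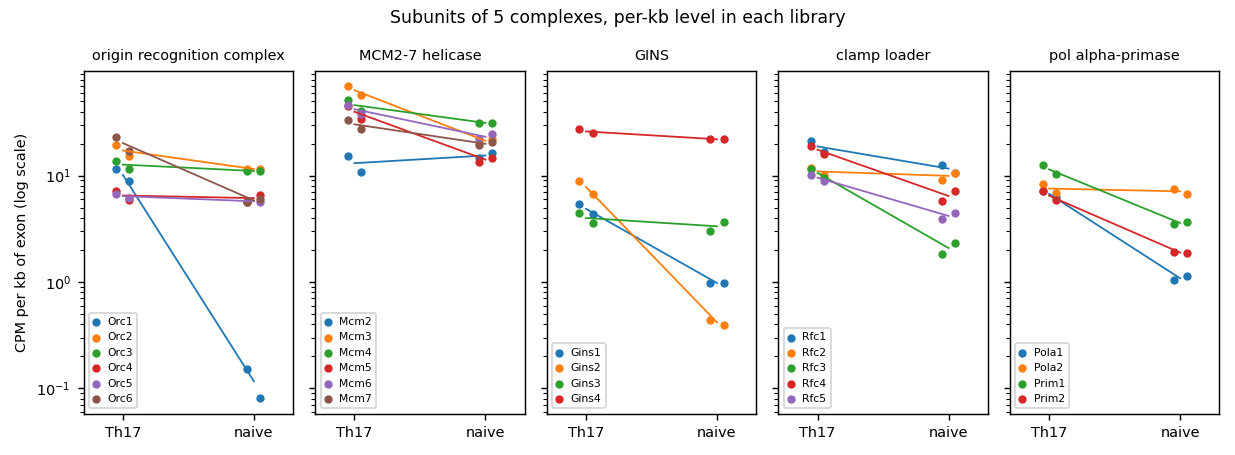
Level per kb of exon (CPM per kb, log axis) of each subunit of 5 replication complexes in Th17 cells (left) and naive cells (right), with a point for each library and lines joining group means. Subunits of ORC, GINS and polymerase alpha-primase lie closer together in Th17 cells. Those of the clamp loader do so less clearly when the longest coding transcript is taken as the length (2.10-fold in Th17 and 2.58-fold in naive cells). Mcm2 lies below the other MCM subunits in Th17 cells. The size of that gap depends on the length, with 6956 exonic bases for Mcm2 and 3371 in its longest coding transcript. Gins4 lies above the other GINS subunits in both groups.

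Among firing genes Mcm10, Gins2, Cdc45, Gins1 and Dbf4 rose, and Gins3, Gins4 and Cdc7 did not pass. Mcm10, an initiation factor that is not part of the MCM ring, lay at 49.1 and 39.9 CPM in Th17 against 0.743 and 1.20 CPM in naive cells, a log2 fold change of 5.54 (SE 0.27, edgeR adjusted p = 5.7e-07). Cdc45 lay at 60.7 and 48.0 CPM in Th17 against 4.03 and 4.86 CPM in naive cells, a log2 fold change of 3.62 (SE 0.21, edgeR adjusted p = 1.3e-06). No library of either group overlapped for these genes. Cdc45 over Mcm2 in reads per kb was 1.14 and 1.26 in Th17 and 0.0780 and 0.0857 in naive cells.

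The 4 GINS subunits divided into pairs. Gins2 lay at 36.7 and 27.4 CPM in Th17 against 1.80 and 1.62 CPM in naive cells, a log2 fold change of 4.22 (SE 0.25, edgeR adjusted p = 1.6e-06). Gins1 lay at 8.19 and 6.59 CPM in Th17 against 1.49 and 1.48 CPM in naive cells, a log2 fold change of 2.31 (SE 0.39, edgeR adjusted p = 8.2e-04). Gins1 was not called without either naive library, at log2 fold changes of 2.27 and 2.23. Gins3 and Gins4 did not pass at log2 fold changes of 0.26 (SE 0.26) and 0.25 (SE 0.15), and Gins4 was called higher on unscaled totals, at 0.54, and with upper quartile scaling, at 0.36. Gins2 overlaps exons of Gse1 on the other strand over 2758 bases, and reads of such overlaps cannot be assigned without strand.

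The 2 subunits of the firing kinase also differed. Dbf4, the activator of the kinase, lay at 61.5 and 50.4 CPM in Th17 against 26.5 and 37.2 CPM in naive cells, a log2 fold change of 0.82 (SE 0.20, edgeR adjusted p = 0.0068) that was not called without naive library 1 (0.55). Cdc7, the catalytic subunit, lay at 30.1 and 24.2 CPM in Th17 against 27.2 and 29.6 CPM in naive cells and did not pass (log2 of -0.06, SE 0.17, and 0.24 on unscaled totals). Reads per kb of Dbf4 over Cdc7 were 0.980 and 0.999 in Th17 and 0.467 and 0.604 in naive cells. Which gene is the higher cannot be read from this, because it depends on the length used. Dbf4 has 8728 exonic bases and 2402 in its longest coding transcript, and Cdc7 has 4183 and 3129.

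At the fork, the polymerase genes changed subunit by subunit. Pole, the catalytic subunit of the leading strand polymerase epsilon, lay at 66.2 and 54.6 CPM in Th17 against 10.03 and 6.97 CPM in naive cells, a log2 fold change of 2.82 (SE 0.21, edgeR adjusted p = 8.3e-06). Pole2, its second subunit, fell by 0.89 on the log2 scale (SE 0.22, edgeR adjusted p = 0.0067), with 14.5 and 11.9 CPM in Th17 against 28.8 and 20.4 CPM in naive cells. The fall of Pole2 was not called without naive library 1 (log2 of -0.67) or on unscaled totals (-0.60). Pole over Pole2 in reads per kb was 1.178 and 1.184 in the Th17 libraries and 0.0900 and 0.0881 in the naive libraries.

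Polymerase alpha-primase, which starts each new strand, showed the same unevenness. Pola1, the catalytic subunit, lay at 63.4 and 55.3 CPM in Th17 against 9.18 and 9.93 CPM in naive cells, a log2 fold change of 2.64 (SE 0.17, edgeR adjusted p = 2.4e-06). The primase genes Prim1 and Prim2 rose by log2 fold changes of 1.68 (SE 0.17) and 1.78 (SE 0.18), with 34.8 to 48.4 CPM in Th17 and 11.2 to 14.3 CPM in naive cells. Pola2, the regulatory subunit, lay at 68.7 and 56.6 CPM in Th17 against 62.6 and 55.4 CPM in naive cells, which overlap, and did not pass (log2 of 0.09, SE 0.16). The 4 subunits spanned 1.76-fold and 1.77-fold per kb in the Th17 libraries and 7.24-fold and 5.93-fold in the naive libraries. Pold1 and Pold2, the catalytic and second subunits of the lagging strand polymerase delta, lay at 94.0 and 72.4 CPM (Pold1) and 51.8 and 42.0 CPM (Pold2) in Th17 against 76.5 and 74.8 CPM (Pold1) and 45.0 and 56.9 CPM (Pold2) in naive cells. Neither passed, at log2 fold changes of 0.14 (SE 0.17) and -0.12 (SE 0.18), and Pold1 was called higher on unscaled totals, at 0.44. The accessory subunits of polymerase delta, Pold3 and Pold4, are not members and were named after their values were seen, as was Pole3 of polymerase epsilon. Pold3 lay at 66.9 and 60.8 CPM in Th17 against 37.6 and 31.8 CPM in naive cells and Pold4 at 56.4 and 51.4 CPM in Th17 against 28.6 and 33.3 CPM in naive cells, and both rose, by log2 fold changes of 0.88 and 0.80 (SE 0.16 each, edgeR). Pole3 rose by 0.71 (SE 0.16), a call lost without either naive library (0.64 and 0.66).

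Pcna, the clamp that holds polymerases on DNA, had the highest level per kb of all members in both groups. It lay at 254 and 216 CPM in Th17 against 131 and 156 CPM in naive cells, a log2 fold change of 0.71 (SE 0.17, edgeR adjusted p = 0.0054) that was not called without naive library 1 (0.55). The annotation lists the copies Pcna-ps1 and Pcna-ps2, to which reads may be split. Of the clamp loader genes, Rfc3 rose most, with 42.0 and 34.6 CPM in Th17 against 6.69 and 8.38 CPM in naive cells and a log2 fold change of 2.35 (SE 0.20, edgeR adjusted p = 1.5e-05). Rfc4 and Rfc5 rose by 1.45 (SE 0.21) and 1.20 (SE 0.16). Rfc1, the large subunit, rose by 0.69 (SE 0.18), a call lost without either naive library (0.79 and 0.49) and without Th17 library 1 (0.47). Rfc2, at 73.6 and 64.4 CPM in Th17 and 57.9 and 67.4 CPM in naive cells, did not pass (log2 of 0.14, SE 0.16) and was called higher on unscaled totals, at 0.44. Rfc2 shares 952 exonic bases with Lat2 on the other strand.

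The genes that finish Okazaki fragments both rose. Lig1, the ligase that seals them, lay at 110 and 93.7 CPM in Th17 against 22.8 and 24.2 CPM in naive cells, a log2 fold change of 2.12 (SE 0.16, edgeR adjusted p = 7.9e-06). Fen1, the flap nuclease that trims them, lay at 70.7 and 62.5 CPM in Th17 against 23.9 and 27.0 CPM in naive cells, a log2 fold change of 1.39 (SE 0.16, edgeR adjusted p = 8.0e-05), and overlaps 2039 exonic bases of Tmem258 and Gm10143 on the other strand. Rpa3, the small subunit of RPA, rose by 0.96 (SE 0.19), while Rpa2, at 50.3 and 42.1 CPM in Th17 and 40.3 and 40.8 CPM in naive cells, did not pass (log2 of 0.19, SE 0.16) and was called higher on unscaled totals, at 0.49. Rpa1, the large subunit, is not a member and was picked with its values in view. It lay at 184 and 155 CPM in Th17 against 305 and 352 CPM in naive cells and fell by 0.96 on the log2 scale (SE 0.17, edgeR adjusted p = 0.0012), so the 3 subunits of RPA did not move together.

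The fork protection genes split as well. Clspn, which encodes claspin, the mediator of the replication checkpoint, lay at 52.3 and 41.1 CPM in Th17 against 1.70 and 0.775 CPM in naive cells, a log2 fold change of 5.19 (SE 0.35, edgeR adjusted p = 2.2e-05). Tipin lay at 70.4 and 52.0 CPM in Th17 against 14.4 and 18.2 CPM in naive cells, a log2 fold change of 1.91 (SE 0.20, edgeR adjusted p = 6.1e-05). Timeless, whose protein forms a pair with TIPIN, lay at 46.8 and 43.8 CPM in Th17 against 76.8 and 51.4 CPM in naive cells. Its log2 fold change of -0.50 (SE 0.20, edgeR adjusted p = 0.058) did not pass, and it was called lower without naive library 2 (-0.83) and without Th17 library 1 (-0.58), while with the replicate number as a block it was -0.48 and called. Tipin over Timeless in reads per kb was 4.92 and 3.88 in Th17 and 0.615 and 1.16 in naive cells. In the authors' deposited table, 32 members were called higher and 3 lower, against 57.7% of all genes called in either direction there, and the third lower member was Timeless at a log2 fold change of -0.45 with an adjusted p of 0.0451.

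The genes of S phase entry rose together. Ccne2, a cyclin that activates CDK2 at the start of S phase, lay at 44.8 and 32.7 CPM in Th17 against 0.637 and 0.422 CPM in naive cells, with 12 and 6 naive reads and a log2 fold change of 6.15 (SE 0.30, edgeR adjusted p = 5.6e-07). Its close relative Ccne1 lay at 58.5 and 44.9 CPM in Th17 against 8.12 and 6.90 CPM in naive cells, a log2 fold change of 2.78 (SE 0.20, edgeR adjusted p = 4.8e-06). E2f1, the transcription factor that switches on many S phase genes, lay at 29.9 and 27.7 CPM in Th17 against 6.05 and 4.65 CPM in naive cells, a log2 fold change of 2.42 (SE 0.21, edgeR adjusted p = 1.7e-05). Ccne2 over Ccne1 in reads per kb was 0.583 and 0.555 in Th17 and 0.0597 and 0.0466 in naive cells. Ccne2 overlaps 609 exonic bases of Ints8 on the other strand.

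A list of 63 further genes of replication and its control, none of them a member, was read in the same fit. Of these 37 rose, 12 fell and 14 did not pass, with a median log2 fold change of 0.70. Among all tested genes 34.3% were called higher and 30.7% lower, with a median of 0.06. The largest rises were those of Ccna2, the S phase cyclin, at 109 and 91.4 CPM in Th17 against 2.39 and 2.32 CPM in naive cells, Rrm2, a subunit of ribonucleotide reductase, Chek1, the checkpoint kinase, and the repressor E2f8, with log2 fold changes of 5.41, 5.22, 5.22 and 5.01 (edgeR). The largest falls were those of Cdkn1b, which encodes the CDK inhibitor p27, at 72.8 and 70.8 CPM in Th17 against 199 and 206 CPM in naive cells, and of Donson, Mcm9 and Pole4, with log2 fold changes of -1.49, -1.33, -1.11 and -1.01. Donson takes part in helicase assembly, Mcm9 encodes a relative of the MCM subunits, and Pole4 is a small subunit of polymerase epsilon.

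Scaling sets where the line between a small rise and no change falls. On library totals with no scaling factor, the calls over all tested genes were 5186 higher and 2619 lower, against 4116 higher and 3684 lower with TMM, and the log2 fold changes lay higher by a median of 0.30. The members called were then 38 higher and 1 lower. The 25 members called under the main settings and all 11 alternatives included 24 that rose and Cdt1, which fell.

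Edited sites, where adenosine is read as guanosine, were a readout that the choice of genes did not use. Of 869 sites listed for Th17 and naive cells, 0 lay in any of the 47 genes by the listed gene name or by position, and 0 of the 355 sites listed for DDX5-deficient and wild-type Th17 cells did. The sites carried only 350 and 143 gene names, against 16308 genes in the count table. Few sites would fall in any 47 genes, so their absence is not a trait of these members. The tables list only sites over the authors' confidence limit, so a low or thinly covered site would not appear, and DDX5-deficient cells could not be compared for the expression of these genes here.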

How the data were processed

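Per the submitters' processing notes, reads were aligned with STAR 2.6.1a to mm10, counted with featureCounts and tested with DESeq2 1.18.1. Count settings and strand use are not given in the sources used here. The deposited counts per gene (headed original) were used as they stand. The authors also deposited their own log2 fold changes and p-values, which are printed only where named. The fraction of edited reads per site was deposited by the authors, called with SAILOR per the labels, and served only to list sites.

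Counts were tested with edgeR 4.0.16 in R 4.3.3 (filterByExpr, TMM, robust quasi-likelihood fit on group, Benjamini-Hochberg adjustment, threshold 0.05), on code tested on simulated data. Standard errors are the log2 fold change over the root of F. CPM used TMM-scaled library sizes, and values with ± or SD are over n = 2. Levels per kb used the union of exons in GENCODE M21, which matched 16295 of 16308 genes, and depend on the transcripts annotated. A floor of 3 reads corresponded to 0.104 to 0.227 CPM per library.

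The members, the list of further genes and the named genes (all 47 members, and the 4 largest rises and 4 largest falls called on that list) were chosen with earlier results of these data known. Same-numbered libraries did not deviate together (r = -0.05 over genes), and the numbers were not treated as pairs in the main fit. With 2 libraries a group this sets a single difference per group side by side. It cannot show whether the libraries with a common number share a source. No molecular identifiers are named in the sources used here, so precision set by depth covers counting error only. Alternatives were upper quartile and RLE scaling, unscaled totals, DESeq2 1.42.0, other count filters, a replicate block and each library left out.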

Additional observations from a re-analysis of the deposited data

How the results depend on the processing

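Of the 34 members called, 25 kept their call and direction in all 11 alternatives. With DESeq2, RLE scaling, no filter on low counts or a mean normalized count of at least 10, all 47 members kept their direction and their side of the threshold. On unscaled library totals 1 member was called lower in all and 0 at the fork, 7 of the further replication genes were called lower, and Mcm2, Cdc7 and Pold2 changed sign, to 0.058, 0.24 and 0.19. With upper quartile scaling, which shifted all genes by a median log2 of 0.11, Cdc7 was at 0.051. With a replicate block 2 fork genes were called lower, because Timeless was added, and 32 members higher and 3 lower in all. With single libraries left out, the genes called higher ran from 2380 to 4847, members called lower from 1 to 4, licensing genes called higher from 6 to 10 and lower from 1 to 2, firing genes called higher from 3 to 5, and fork genes called lower from 0 to 2, with naive library 1 left out at the low end for the members. Members near 0 then changed sign, with log2 fold changes running from -0.089 to 0.21 for Orc4, -0.26 to 0.090 for Cdc7, -0.0065 to 0.24 for Rfc2, -0.092 to 0.22 for Pola2, -0.095 to 0.32 for Pold1 and -0.32 to 0.030 for Pold2. A lone library is assumed to vary like those of the other group. The cause of these changes was not tested.

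With the longest coding transcript as the length, chosen after seeing the data, the ratio of the highest to the lowest subunit per kb was 2.91 in Th17 and 1.91 in naive cells for MCM, 2.91 in Th17 and 217 in naive cells for ORC, 2.10 in Th17 and 2.58 in naive cells for the clamp loader, and 2.52 in Th17 and 13.6 in naive cells for polymerase alpha-primase. The promoter counts with 150 bases before the start were 15 members with an E2F octamer and 18 with a CCAAT box. Having 2 libraries a group limits the precision of small changes.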
